A study of Mus musculus with 2 samples.

Results

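Semaphorins are guidance ligands for growing axons, and plexins and neuropilins are their receptors. Their genes were read in the neural tube of newborn mice by gene symbol: protein-coding genes named Sema followed by a digit, Plxna to Plxnd followed by a digit, Nrp1 and Nrp2. The rule took 31 of 43346 gene rows, 20 ligand genes and 11 receptor genes, and all 31 were present in both gene tables. Total RNA was sequenced from single neural tubes of 2 B6NCrl pups, for which no treatment or mutation is labelled, on postnatal day 0, called pup 2 and pup 1 as in the labels, with 1 library for each. The pups were littermates, their sex was not collected, RNA longer than 200 bases was kept, and each library was made from 10 ng of RNA with spike-ins added. Both tubes form 1 group of n = 2, so there is nothing to contrast and no p-value was computed. The gene rows held 40003518 expected counts in pup 2 and 26916916 in pup 1. Levels are given as TPM, the authors' abundance per transcript length scaled to the same total in each library, so that genes of different length can be compared.

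Semaphorins carry a sema domain that binds the sema domain of a plexin, and plexins pass the signal to the cytoskeleton through a GTPase-activating domain that acts on Ras-family GTPases. Class 3 semaphorins are secreted, and most of them bind a neuropilin that forms a complex with a class A plexin. Classes 4, 5 and 6 span the membrane, and class 7 is held in it by a lipid anchor. In the spinal cord these proteins are known for steering sensory, motor and commissural axons and for keeping motor neuron cell bodies inside the cord.

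The labelled tissue was checked against marker genes. All 3 caudal Hox genes tested (Hoxc9, Hoxc10 and Hoxd10) were at or above 1 TPM in both pups, and their sum was 127 TPM in pup 2 and 203 TPM in pup 1. The forebrain genes Emx1 and Otx2 did not reach that level: Emx1 was at 0 TPM in pup 2 and 0.05 TPM in pup 1, and Otx2 was listed at 0 in both. The tubes held many cell types, among them neurons (4 markers, 1457 and 1684 TPM in pup 2 and pup 1), astrocytes (4 markers, 560 and 564 TPM) and microglia (4 markers, 109 and 110 TPM). Some lists differed more between the tubes. The 4 myelinating oligodendrocyte markers summed to 481 TPM in pup 2 and 230 TPM in pup 1, and the 5 sensory ganglion markers to 26.0 and 3.25. For the 4 meningeal and fibroblast markers the sums were 2527 and 1189 TPM, of which Ptgds alone made up 2190 and 922 TPM. In scaled counts the others of that list, Col1a1, Dcn and Lum, were 1.32, 1.32 and 1.43-fold higher in pup 2. In whole tubes, fewer cells of a type and less RNA per cell cannot be told apart.

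Nearly the whole family was detected. Of the 31 genes, 30 (96.8%) reached 1 TPM in both pups, beside 63.8% of all 21474 protein-coding rows. A level of 5 TPM in both was reached by 25 of 31, beside 50.2% of protein-coding rows, and 10 TPM by 17 of 31, beside 40.5%. The median over the 31 genes was 10.8 TPM in pup 2 and 11.5 TPM in pup 1. The gene below 1 TPM in both pups was Sema3g, a secreted ligand that binds Nrp2, at 0.31 TPM (37 counts) in pup 2 and 0.40 TPM (31 counts) in pup 1. All 11 receptor genes were detected. The mean levels spanned 100-fold from Sema3g to Nrp1.

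**Figure D1:**
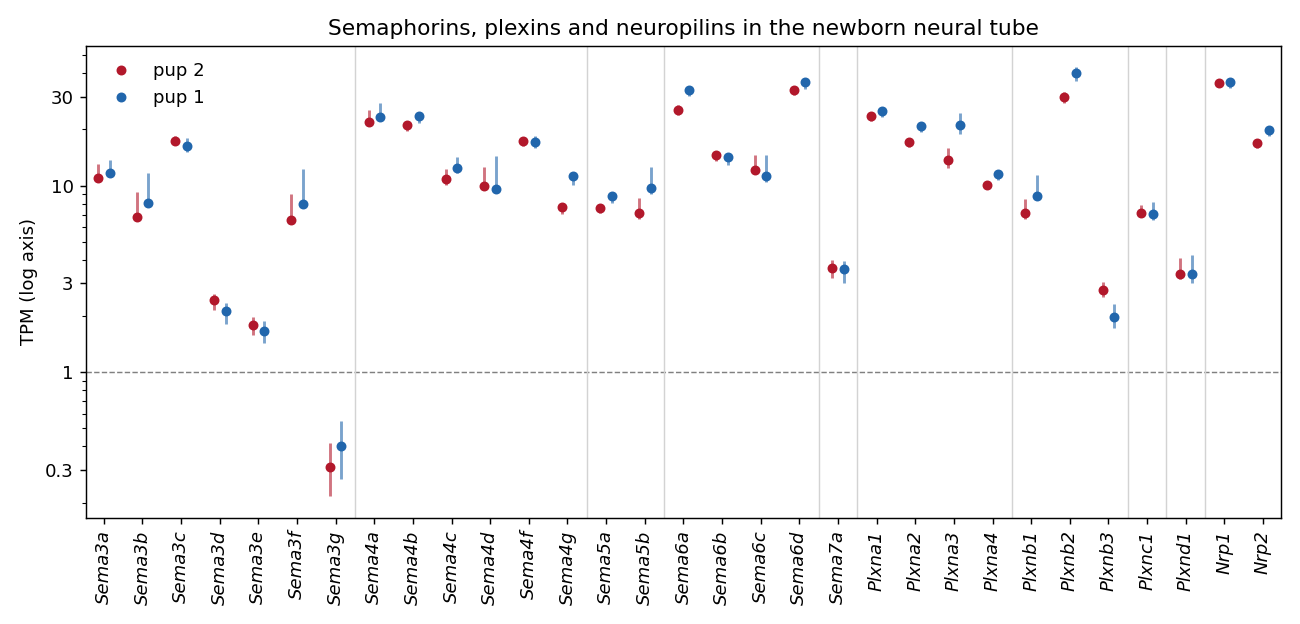
TPM of the 31 genes in pup 2 (left point of each pair) and pup 1 (right point) on a log axis, ordered by class, with vertical lines for the deposited 95% intervals and a dashed line at 1 TPM. Sema3g lies below the line in both pups, and Nrp1, Plxnb2, Sema6d and Sema6a stand highest.

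The secreted class 3 ligands had the widest range of any class, 47.4-fold between their highest and lowest means. Sema3c, which acts through neuropilins and is also known for its part in heart and vessel development, led them at 17.4 TPM in pup 2 and 16.2 TPM in pup 1. Sema3a, the collapsing factor that repels sensory and motor axons through Nrp1, was at 10.95 and 11.7 TPM in pup 2 and pup 1. These values differed little between the pups, so over all transcripts Sema3c stood above Sema3a in both. Over transcripts annotated as protein-coding, Sema3c was above Sema3a in pup 2 and below it in pup 1, at 11.22 against 11.7 TPM. The means of Sema3c and Sema3a over those transcripts were close, at 11.6 and 11.3 TPM. Sema3b, a neuropilin ligand, had 6.82 TPM in pup 2 and 8.03 TPM in pup 1. Sema3f, which repels axons through Nrp2, had 6.51 TPM in pup 2 and 8.0 TPM in pup 1. The ranges of Sema3b and Sema3f overlapped. Sema3d, another neuropilin ligand, was at 2.44 and 2.13 TPM in pup 2 and pup 1, and Sema3e, which binds Plxnd1 without a neuropilin, at 1.79 and 1.67 TPM. Both stood well above Sema3g and below the other 4.

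The class 3 genes lie in groups on the chromosomes (GRCm38). Sema3d, Sema3a, Sema3e and Sema3c lie within 5.35 Mb of chromosome 5, from 12383385 to 17730268, yet Sema3a and Sema3c averaged 11.3 ± 0.530 and 16.8 ± 0.841 TPM (SD, n = 2), while Sema3d and Sema3e averaged 2.29 ± 0.219 and 1.73 ± 0.0849 TPM. Sema3b and Sema3f lie within 112.8 kb of chromosome 9, and their means were 7.43 ± 0.856 and 7.25 ± 1.05 TPM (SD, n = 2). The pair on chromosome 9 was thus close in level, and the 4 genes on chromosome 5 were not.

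Class 4, the membrane ligands that mainly engage class B plexins, had the highest summed level, 88.9 TPM in pup 2 and 97.4 TPM in pup 1 over 6 genes. Its range was narrow, 2.40-fold between the highest and lowest means. Sema4a, known from retina and immune cells, had 22.1 TPM in pup 2 and 23.2 TPM in pup 1. Sema4b, a membrane ligand with a PDZ-binding end, had 21.1 TPM in pup 2 and 23.7 TPM in pup 1. The ranges of these leading genes overlapped. Sema4f, which binds a postsynaptic scaffold protein, was almost equal in the pups, at 17.4 TPM in pup 2 and 17.2 TPM in pup 1. Sema4c, a ligand of Plxnb2, had 10.8 and 12.4 TPM in pup 2 and pup 1, and Sema4d, the ligand of Plxnb1 also called CD100, had 9.94 and 9.62 TPM. Sema4g, another Plxnb2 ligand, had 7.68 TPM in pup 2 and 11.2 TPM in pup 1, the widest gap between pups among the class 4 genes.

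Class 6 followed closely with 4 genes, at 84.8 TPM in pup 2 and 93.8 TPM in pup 1. Sema6d, a ligand of Plxna1, was the highest semaphorin, at 32.5 TPM in pup 2 and 35.7 TPM in pup 1. Sema6a, a ligand of Plxna2 and Plxna4 that helps to confine motor neurons to the cord, had 25.55 TPM in pup 2 and 32.5 TPM in pup 1. Both exceeded the other 2 members of the class, Sema6b at 14.7 and 14.3 TPM in pup 2 and pup 1, and Sema6c at 12.1 and 11.3 TPM. Sema6b is a class A plexin ligand. The ranges of Sema6b and Sema6c did not overlap.

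The class 5 ligands, which carry thrombospondin repeats, were alike: Sema5a, a ligand of Plxnb3, had 7.59 and 8.80 TPM in pup 2 and pup 1, and Sema5b, which with Sema5a constrains neurites in the retina, had 7.09 and 9.76 TPM. Sema7a, the lipid-anchored ligand that binds Plxnc1 and integrin beta 1, had 3.64 TPM in pup 2 and 3.57 TPM in pup 1, and only Sema3d, Sema3e and Sema3g were lower among the ligands. Membrane-bound ligands of classes 4 to 7 together exceeded the secreted class 3 by 4.29 ± 0.194 times in summed TPM (SD, n = 2).

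Among the receptors, Nrp1 (chromosome 8, 128358604 to 128503363), which binds Sema3a and also VEGF, was the highest of all 31 genes by mean, at 35.5 TPM in pup 2 and 35.7 TPM in pup 1. Nrp2 (chromosome 1, 62703285 to 62818695), which binds Sema3f, had 16.9 TPM in pup 2 and 19.9 TPM in pup 1. The ratio of Nrp1 to Nrp2 was 2.10 in pup 2 and 1.79 in pup 1. The neuropilin sum was 54.0 ± 2.35 TPM (SD, n = 2).

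The 4 class A plexins, partners of neuropilins and receptors of class 6 ligands, summed to 64.4 TPM in pup 2 and 78.5 TPM in pup 1. Plxna1, the receptor of Sema6d, led with 23.5 and 25.1 TPM in pup 2 and pup 1. Plxna2, a receptor of Sema6a, had 17.0 and 20.8 TPM in pup 2 and pup 1. Plxna3, which works with Nrp2 for Sema3f, had 13.8 and 21.2 TPM in pup 2 and pup 1, and its range overlapped that of Plxna2. Plxna4, which works with Nrp1 for Sema3a, was lowest of the class, at 10.1 TPM in pup 2 and 11.5 TPM in pup 1. All 4 were lower in pup 2 in TPM, as were 62.9% of all genes averaging 100 counts or more. The deposited TPM intervals of Plxna1 overlapped between the pups.

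The class B plexins, which reach RhoA through the exchange factors Arhgef11 and Arhgef12, had the widest range of the receptor classes, 14.8-fold between means over all transcripts and 7.08-fold over those annotated as protein-coding. Plxnb2 (chromosome 15, 89155549 to 89180788), a receptor of Sema4c in neural progenitors, had 29.8 TPM in pup 2 and 40.3 TPM in pup 1. Plxnb1, the receptor of Sema4d, had 7.09 and 8.85 TPM in pup 2 and pup 1. Plxnb3, a receptor of Sema5a known from oligodendrocytes, had 2.75 and 1.98 TPM in pup 2 and pup 1. The 3 genes kept that order in both pups. Plxnc1, the Sema7a receptor, had 7.13 and 7.07 TPM in pup 2 and pup 1, and Plxnd1, the Sema3e receptor of vessels and some neurons, had 3.35 and 3.36 TPM.

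When the 31 genes were ordered by mean TPM, the pup ranges of neighbours were apart in 11 of 30 pairs and overlapped in 19. The first 4 places, held by Nrp1, Plxnb2, Sema6d and Sema6a, could not be separated from one neighbour to the next by these ranges. Within each pup Sema6d was above Sema6a, at 32.46 against 25.55 TPM in pup 2 and 35.74 against 32.46 TPM in pup 1. Over all transcripts Sema6a stood above Plxna1 without overlap, Sema4b above Plxna2, Sema3c above Sema6b, and Plxnc1 above Sema7a. Over transcripts annotated as protein-coding, Sema6a was below Plxna1 in both pups, with means of 19.2 and 24.3 TPM. Sema3c was likewise below Sema6b in both pups, with means of 11.6 and 14.5 TPM. Sema4b stayed above Plxna2, and Plxnc1 above Sema7a.

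**Figure D2:**
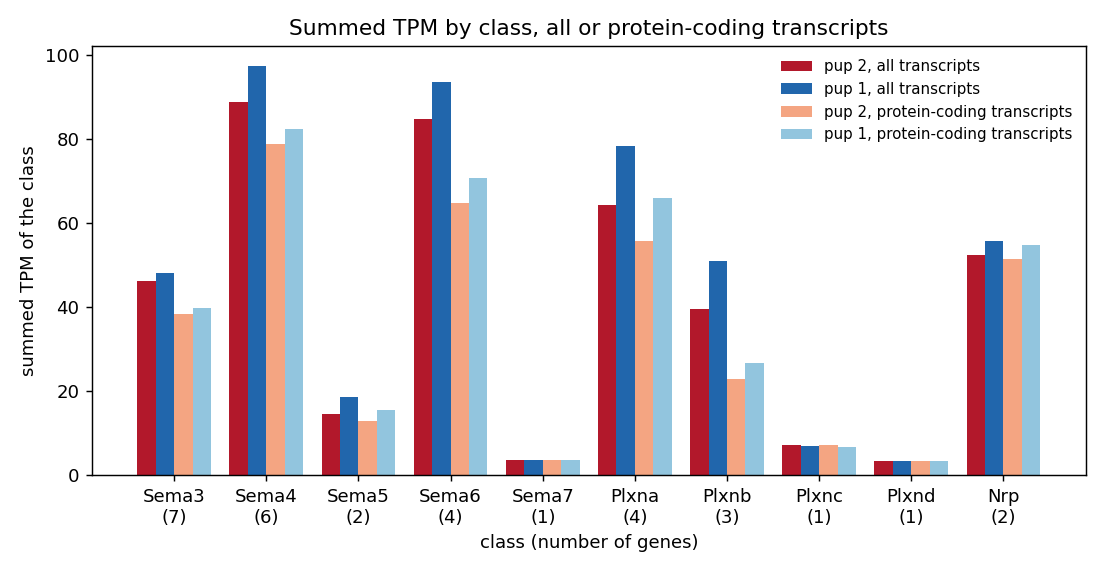
Summed TPM of each class in pup 2 (red) and pup 1 (blue), over all transcripts and, in paler bars, over transcripts annotated as protein-coding. Classes Sema4 and Sema6 are highest, and Plxnb loses the largest share when other transcripts are left out.

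Ligand genes summed to 238 TPM in pup 2 and 261 TPM in pup 1, and receptor genes to 167 TPM in pup 2 and 196 TPM in pup 1, a ligand to receptor ratio of 1.43 in pup 2 and 1.34 in pup 1. On expected counts, which are not divided by transcript length, the ratio was 0.905, so its position against 1 depends on the length scaling. Known ligand and receptor pairs, 13 in all and chosen after the levels had been seen, were set side by side. Sema7a stood at 0.508 ± 0.00394 of Plxnc1 and Sema3e at 0.516 ± 0.0264 of Plxnd1 (SD, n = 2). Sema3a was at 0.318 ± 0.0131 of Nrp1 but at 1.05 ± 0.0452 of Plxna4, while Sema3f was at 0.393 ± 0.0113 of Nrp2 and 0.425 ± 0.0675 of Plxna3, and Sema3c at 0.473 ± 0.0263 of Nrp1. In each pup Sema3a and Sema3c were below Nrp1, and Sema3f was below Nrp2, in TPM and in expected counts. Sema3c was not paired with Nrp2: it stood at 17.4 against 16.9 TPM in pup 2, and at 16.2 against 19.9 TPM in pup 1. In TPM Sema6d was at 1.401 ± 0.0318 of Plxna1, and Sema6a at 1.53 ± 0.0442 of Plxna2 and 2.68 ± 0.212 of Plxna4. In expected counts these 3 pairs were below 1 in both pups, with mean ratios of 0.846, 0.682 and 0.916, so they too lie above or below 1 by the scale used. Sema4c was at 0.336 ± 0.0391 of Plxnb2 over all transcripts and at 0.740 ± 0.0157 over those annotated as protein-coding. Sema4d was at 1.402 of Plxnb1 in pup 2 and 1.09 in pup 1. Expected counts turned 5 of the 13 pairs from above 1 to below it in both pups, the other two being Sema3a to Plxna4 at 0.466 and Sema4d to Plxnb1 at 0.650, and moved 9 of 13 by over 1.5 times. The pair that differed most between the pups was Sema5a to Plxnb3, at 2.76 in pup 2 and 4.44 in pup 1.

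**Figure D3:**
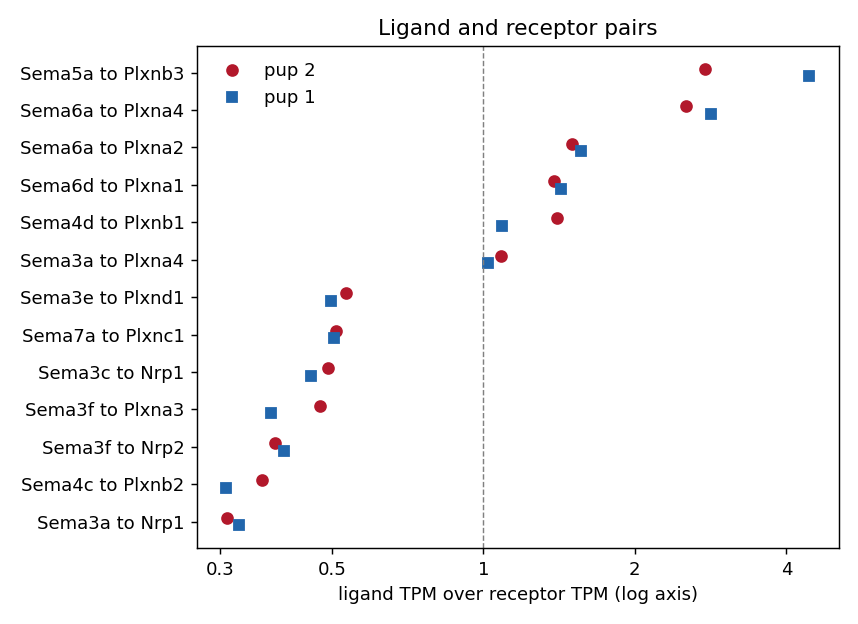
Ligand TPM divided by receptor TPM for known pairs on a log axis, pup 2 as circles above pup 1 as squares, with a dashed line at 1. The pairs of Sema3a and Sema3c with Nrp1 and of Sema3f with Nrp2 lie left of the line. The pairs of Sema6a and Sema6d with plexins lie right of it in TPM but were below 1 in expected counts.

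The pups were compared by the log2 ratio of CPM (counts scaled to the library total), pup 2 over pup 1, after TMM scaling over all genes. Among the 30 genes averaging 100 counts or more (all but Sema3g), 0 passed 2-fold, beside 0.472% of 13545 genes at that count, of which 0.413% were higher and 0.0591% lower in pup 2. At 1.5-fold 0 passed, beside 2.01% (1.54% higher and 0.465% lower in pup 2). Here passing means a fold and not a test, since each pup gave 1 library. The deposited 95% TPM intervals of the pups lay apart, lower in pup 2, for 10 of the 30, beside 15.9% of genes, and lay apart, higher in pup 2, for 1, beside 7.72%. Those intervals cover estimation from reads only. In TPM itself, 66.7% of the 30 members were lower in pup 2, beside 62.9% of genes. The log2 ratio was below 0 for 17 of 30, beside 49.7% of genes, and its median was -0.08 for members and 0.00 for all genes.

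Plxna3 had the lowest ratio of pup 2 to pup 1 among the members. It held 1488 counts in pup 2 and 1488 in pup 1, although the pup 2 library was 1.49 times as deep, which gave a log2 ratio of -0.55 with a 95% counting interval of -0.66 to -0.45. Sema4g followed, with 904 counts in pup 2 and 845 in pup 1 and a log2 ratio of -0.46. Plxnb1 had a log2 ratio of -0.40. Of all genes at that count, the central 95% lay between -0.36 and 0.46, and these 3 lay below it. The TPM intervals lay apart and lower in pup 2 for Plxna3 and Sema4g, and for Nrp2, Plxna2, Plxna4, Plxnb2, Sema4b, Sema5a, Sema5b and Sema6a, while those of Plxnb1 overlapped. The log2 ratios of the last 8 of the 10 lay between -0.29 for Sema5b and -0.08 for Sema4b. For Sema4b the counting interval ran from -0.18 to 0.02, on both sides of no change. Of the 3 caudal Hox genes Hoxc10 and Hoxd10 were lower in pup 2 too, with log2 ratios of -0.84 and -0.66, and Hoxc9 was not, at 0.22. Their part in the differences of members was not tested.

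Plxnb3 had the highest ratio of pup 2 to pup 1 among the members, with 432 counts in pup 2 and 196 in pup 1. Its log2 ratio was 0.58 with a counting interval of 0.34 to 0.83, or 1.497-fold. It was the gene whose intervals lay apart and higher in pup 2. The 4 myelinating oligodendrocyte markers were all higher in pup 2 as well, with a median log2 ratio of 1.26, and the lowest of them, Mog, was at 1.64 TPM in pup 2 and 0.72 TPM in pup 1. Their part in the Plxnb3 difference was not tested. Sema6c was next, at 1022 counts in pup 2 and 557 in pup 1 and a log2 ratio of 0.32. In TPM its ratio of pup 2 to pup 1 was 1.07, and its deposited intervals overlapped. The deposited gene length of Sema6c was 3270 bases in pup 2 and 2953 in pup 1. Nrp1, the highest gene by mean TPM, had a log2 ratio of 0.06.

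**Figure D4:**
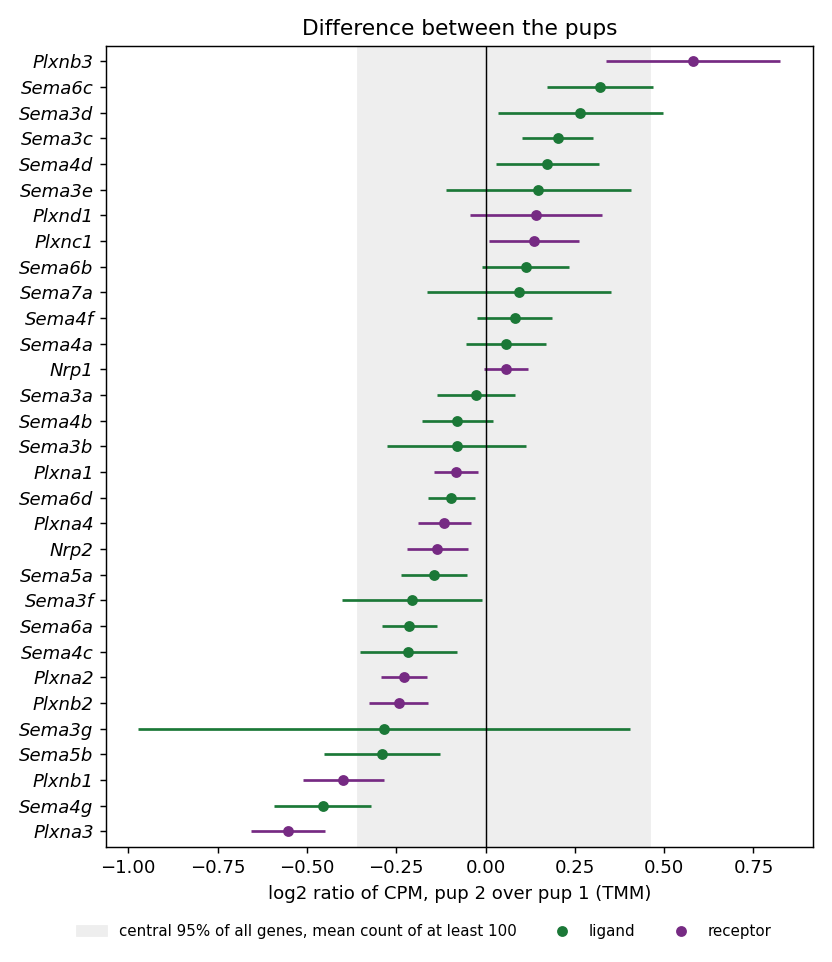
Log2 ratio of CPM, pup 2 over pup 1, for the 31 genes, ligands in green and receptors in purple, with lines for 95% counting intervals and a grey band for the central 95% of all genes. Plxnb3 lies right of the band and Plxna3, Sema4g and Plxnb1 lie left of it.

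Transcript use was read from the deposited percent of gene TPM per transcript. The 31 genes had 185 transcript rows. For 6 genes there was 1 row each (Nrp1, Plxna4, Sema3d, Sema3g, Sema5a, Sema7a), so no isoforms could be compared, and known soluble forms of Nrp1 could not be read. Of the 25 with several rows, 23 (92%) had the same leading transcript in both pups, beside 90.2% of 10073 genes. The leading transcript held over 90% in both pups for 12 of the 31, the 6 with a single row included, and under 50% in both for 5. Shares of all genes past these limits were not computed.

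Sema6d was the gene whose leading coding form differed between the pups. Its leading transcript was Sema6d-206 in pup 2, at 29.8% in pup 2 and 24.7% in pup 1. In pup 1 it was Sema6d-208, at 26.1% in pup 2 and 34.4% in pup 1. Sema6d-206 encodes 1073 codons and Sema6d-208 encodes 998, and the difference consists of 2 coding exons on chromosome 2. They are shown because these exons separate the forms, in lower case throughout (GENCODE M21 transcript sequence, GRCm38, plus strand, chr2:124660705-124660761 and chr2:124662204-124662371):
Sema6d exon of 57 bases: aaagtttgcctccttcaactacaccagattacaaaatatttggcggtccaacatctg
Sema6d exon of 168 bases: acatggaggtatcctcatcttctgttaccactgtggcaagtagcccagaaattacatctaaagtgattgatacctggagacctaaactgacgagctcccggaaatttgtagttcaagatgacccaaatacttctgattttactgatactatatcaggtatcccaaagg
Both exons keep the reading frame, with 19 and 56 codons. Of the TPM of coding Sema6d transcripts, those with the 57-base exon made up 55.1% in pup 2 and 46.1% in pup 1, and those with the 168-base exon 49.2% in pup 2 and 41.5% in pup 1. Each exon was thus in and out of the transcripts in near-equal shares, at 50.6 ± 6.38% and 45.3 ± 5.45% (SD, n = 2).

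The other gene with differing leading transcripts was Sema4c, where Sema4c-201 was at 56.3% in pup 2 and 28.0% in pup 1, Sema4c-208 at 0% in pup 2 and 33.9% in pup 1, and Sema4c-203 at 26.5% in pup 2 and 23.1% in pup 1. All 3 have the same coding exons of 834 codons, so the coding form did not differ. The same held for further genes with a divided pattern. Sema3b-202 and Sema3b-205, both of 749 codons, were at 45.8% and 24.7% in pup 2 and at 69.9% and 13.1% in pup 1. Sema4d-201 and Sema4d-203, of 861 codons, were at 63.8% and 16.0% in pup 2 and at 47.8% and 29.2% in pup 1. Sema4g-201 was at 74.4% in pup 2 and 48.2% in pup 1, and Sema4g-203, also of 837 codons, at 8.22% in pup 2 and 28.9% in pup 1. Plxna1-202 and Plxna1-201, of 1894 codons, were at 79.1% and 20.9% in pup 2 and at 89.8% and 10.2% in pup 1. By posterior mean TPM, Sema3b-202 was at 28.2% in pup 2 and 41.96% in pup 1, Sema4d-203 at 18.3% in pup 1, and Sema4g-203 at 14.75% in pup 2. Of the 13 genes with several coding forms, 12 had the same leading form in both pups, and the share over all genes was not computed.

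Nrp2 is made in forms that differ at their intracellular end. The a forms end in a motif that binds the PDZ domain of the adaptor GIPC1, as Nrp1 does, and the b forms have another end. Of gene TPM, the a forms (Nrp2-204 and Nrp2-202, 909 and 926 codons) made up 45.9% in pup 2 and 42.9% in pup 1, and the b forms (Nrp2-201 and Nrp2-205, 906 and 901 codons) 49.3% in pup 2 and 52.6% in pup 1. Both ends were therefore present in near-equal amounts, 8.15 ± 0.566 TPM for a and 9.41 ± 1.53 TPM for b (SD, n = 2). By single transcript, Nrp2-204 was at 40.04% in pup 2 and 38.15% in pup 1, Nrp2-201 at 26.1% and 32.3%, and Nrp2-205 at 23.3% and 20.3%. By the deposited posterior mean TPM, a second estimate from the same reads, Nrp2-201 led in both pups, at 25.95% in pup 2 and 31.8% in pup 1, Nrp2-204 was at 22.9% and 28.2%, and Nrp2-203, a further a form listed at 0%, was at 16.3% and 9.13%. The summed shares of the a forms by that estimate were 45.7% in pup 2 and 42.9% in pup 1, close to those above. The last 60 coding bases before the stop codon show the ends, with the last 3 codons in capitals (GRCm38, plus strand, chr8:128502752-128502811 for Nrp1, chr1:62815575-62815634 for Nrp2-204 and chr1:62795927-62795986 for Nrp2-201):
Nrp1-201 coding end: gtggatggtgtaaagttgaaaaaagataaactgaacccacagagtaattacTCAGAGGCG
Nrp2-204 coding end: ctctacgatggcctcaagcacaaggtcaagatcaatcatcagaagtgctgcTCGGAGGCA
Nrp2-201 coding end: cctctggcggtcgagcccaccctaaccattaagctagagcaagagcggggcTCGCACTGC
The last 3 codons of Nrp1-201 and Nrp2-204 encode the same amino acids, and those of Nrp2-201 do not. Aligned without gaps, 29 of 60 bases were identical between Nrp1-201 and Nrp2-204, 15 of 60 between Nrp1-201 and Nrp2-201, and 20 of 60 between the Nrp2 ends. Nrp2-201 also carries 15 extra bases (5 codons) that extend the exon before the end, shown in capitals within that exon (GRCm38, plus strand, chr1:62786281-62786316):
Nrp2-201 insert: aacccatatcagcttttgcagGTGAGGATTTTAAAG
Transcripts with this insert (Nrp2-201, Nrp2-203 and Nrp2-206) made up 27.4% of coding Nrp2 TPM in pup 2 and 33.8% in pup 1, and by posterior mean TPM 45.4% in pup 2 and 43.7% in pup 1. The adaptor gene Gipc1 was at 88.0 TPM in pup 2 and 85.0 TPM in pup 1.

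Sema3f had a cassette exon of 31 codons on chromosome 9, present in Sema3f-204 (785 codons) and absent from the leading Sema3f-201 (754 codons). Its sequence is given because it is the alternative part of the ligand of Nrp2 (GRCm38, minus strand, chr9:107691356-107691448):
Sema3f exon of 93 bases: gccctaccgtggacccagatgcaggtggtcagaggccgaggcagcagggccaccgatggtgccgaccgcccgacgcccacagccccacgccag
Transcripts with it made up 26.4% of coding Sema3f TPM in pup 2 and 24.9% in pup 1, so the form without it dominated in both tubes. Sema3f-201 itself was at 54.8% of gene TPM in pup 2 and 54.8% in pup 1.

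Some gene levels rested in part on short transcripts that are not annotated as coding. The leading Plxnb2 transcript was Plxnb2-205, a processed transcript of 841 bases, at 49.75% in pup 2 and 47.99% in pup 1, ahead of the coding Plxnb2-202 at 43.4% and 37.96%. In expected counts Plxnb2-205 held 292 in pup 2 and 248 in pup 1, and Plxnb2-202 held 2157 and 1657. All 834 bases of Plxnb2-205 in the annotation used lie in exons of Plxnb2-202, so in that annotation no base belongs to it alone. Plxnb2-202 has 6497 bases there. The deposited models had 841 bases for Plxnb2-205 and 6377 for Plxnb2-202, and their overlap was not checked. Counted over coding transcripts, Plxnb2 averaged 15.15 ± 2.08 TPM, against 35.0 ± 7.44 TPM over all transcripts (SD, n = 2), and its place among the 31 genes was 10 over coding transcripts and 2 over all. The deposited gene length of Plxnb2, a mean over its transcripts, was 3375 bases in pup 2 and 3104 in pup 1, and the ratio of pup 2 to pup 1 was 0.739 in TPM and 0.845 in scaled counts. Plxnb2 was the only one of the 25 genes (4%) with a leading transcript of another type in both pups, beside 8.31% of genes.

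Plxna3 had 53.3% of its TPM on the coding Plxna3-201 in pup 2 and 53.4% in pup 1, and its place was 16 over coding transcripts and 10 over all. Retained-intron transcripts at or above 20% in a pup were Sema5b-204, at 17.0% in pup 2 and 22.45% in pup 1, and Sema4a-211, at 14.0% in pup 2 and 20.8% in pup 1. The coding leaders of those genes were Sema5b-201, at 60.25% and 61.8% in pup 2 and pup 1, and Sema4a-214, at 48.5% and 37.8%. Sema4g-202, annotated as subject to nonsense-mediated decay, was at 17.4% in pup 2 and 22.9% in pup 1. Sema6a was spread widely, with Sema6a-201 (1031 codons) at 38.6% in pup 2 and 33.7% in pup 1 and Sema6a-202 (976 codons) at 13.6% in pup 2 and 21.8% in pup 1. Class Plxnb summed to 24.8 ± 2.56 TPM over coding transcripts, against 45.4 ± 8.14 TPM over all transcripts (SD, n = 2).

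The remaining leading transcripts were all protein-coding. Among ligands, Sema3a-201 was at 95.4% in pup 2 and 95.4% in pup 1, Sema3c-201 at 69.1% and 69.1%, Sema3e-201 at 95.7% and 100%, Sema4b-201 at 89.1% and 87.1%, Sema4f-201 at 97.3% and 97.3%, Sema6b-201 at 98.7% and 100%, and Sema6c-201 at 68.2% and 49.6%. Among receptors, Plxna2-201 was at 86.6% in pup 2 and 87.2% in pup 1, Plxnb1-201 at 81.5% and 91.2%, Plxnb3-201 at 97.7% and 80.1%, Plxnc1-201 at 100% and 96.1%, and Plxnd1-201 at 100% and 94.3%. Sema3c and Sema6c thus stood out among these 12 by their lower shares.

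**Figure D5:**
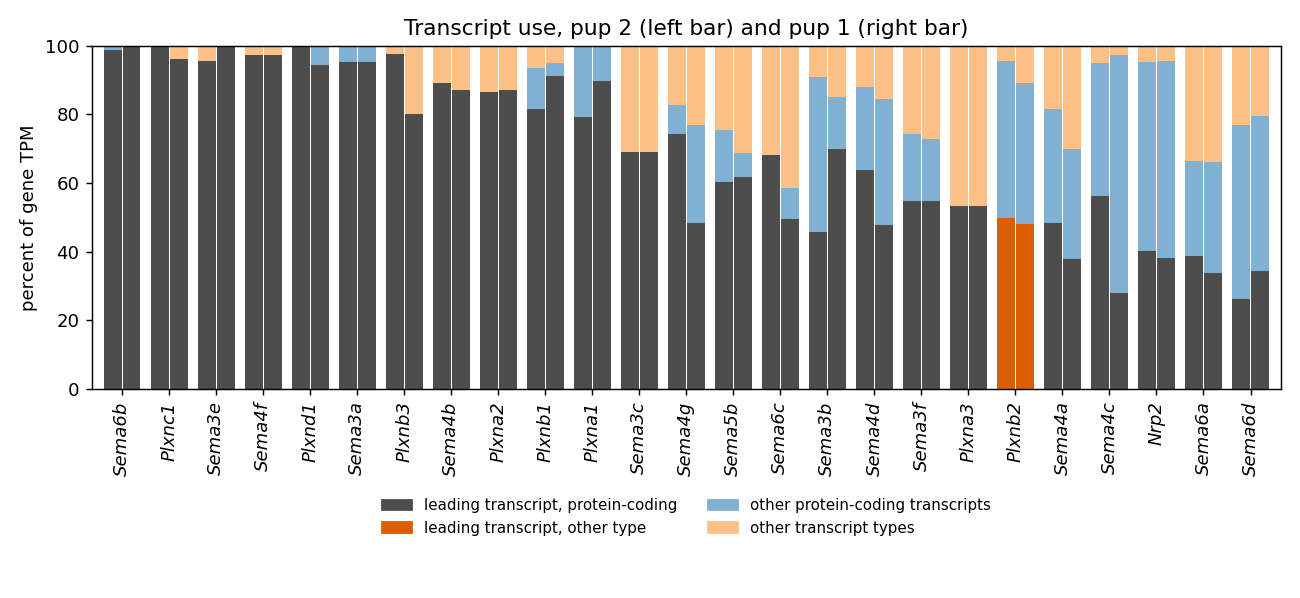
Percent of gene TPM by transcript for the 25 genes with several transcript rows, pup 2 as the left bar and pup 1 as the right bar, ordered by the mean share of the transcript that leads by the mean over both pups. Bars are almost wholly dark for Sema6b, Plxnc1 and Sema4f, the orange bars mark Plxnb2, and Sema6d at the right is the most divided.

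These genes shared little sequence with others. All 100-base runs of their transcripts were searched in the other transcripts: 24 genes shared none with another gene, no run was shared between members, and the highest shares were 4.65% for Sema4c and 3.20% for Plxna1. The share of all genes without a shared run was not computed. Counts were whole numbers for 28 of 31 genes, and the other 3, Plxna1, Plxnb1 and Sema4c, overlap exons of a gene on the opposite strand. Those partners were low, at 0.10 TPM in pup 2 and 0.12 TPM in pup 1 for Gm26811, 0.28 and 0.31 TPM for Gm7628, and 0.72 and 0.57 TPM for D430040D24Rik. The share of all genes with whole-number counts was not computed either. The strand setting of the counting is not given, so reads of a gene and its antisense partner cannot be told apart. The deposited TPM lay outside its own interval in 1 pup or both for 4 of the 30 genes (Nrp1, Sema3b, Sema3f and Sema4d), beside 7.81% of protein-coding genes. For Sema3f it was 6.51 TPM with an interval of 6.604 to 8.98 in pup 2, and 8.0 TPM with an interval of 8.08 to 12.3 in pup 1. The antisense genes Plxna4os1 and Plxna4os2 were at 0.14 and 0.25 TPM, and at 0.75 and 0.86 TPM, in pup 2 and pup 1.

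The other genes of the pathway were read from lists. Of 49 partner genes 48 were at or above 1 TPM in both pups, beside 63.8% of protein-coding rows. In scaled counts 0 of the 47 partners averaging 100 counts or more passed 2-fold between the pups, beside 0.472% of genes. In TPM 1 of 47 did, beside 0.48%: Rhod, a small GTPase, had 8.46 TPM in pup 2 and 4.17 TPM in pup 1, a ratio of 2.03 in TPM and 1.19 in scaled counts. By mean TPM the co-receptors were led by Itgb1, the integrin beta subunit bound by Sema7a, at 67.5 TPM in pup 2 and 63.1 TPM in pup 1, by Tyrobp, a signalling adaptor of plexin A complexes in myeloid cells, at 62.2 and 54.0 TPM, and by L1cam, the adhesion molecule that joins Nrp1 in the Sema3a response, at 45.4 and 61.05 TPM. Chl1, a relative of L1cam, was close to these at 47.2 TPM in pup 2 and 55.9 TPM in pup 1, and the pup ranges of Tyrobp, L1cam and Chl1 overlapped. Timd2, a receptor of Sema4a on immune cells, held 0 counts in both, which allows up to 0.0750 CPM in pup 2 and 0.111 CPM in pup 1, for counting error only. Vegfa, a further ligand of neuropilins, was at 2.85 TPM in pup 2 and 2.28 TPM in pup 1. Of the proteases, Mmp14, which sheds Sema4d, was at 44.99 and 45.7 TPM in pup 2 and pup 1, Adam10 at 33.2 and 31.6, Adam17 at 10.6 and 10.6, and Furin, which cleaves class 3 semaphorins, at 6.28 and 5.65.

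Of the signalling genes, the 5 CRMP genes, which carry the Sema3a signal to microtubules, summed to 2157 TPM in pup 2 and 2352 TPM in pup 1, against 405 and 457 TPM for all 31 members together. Dpysl2 (CRMP2) led at 896 TPM in pup 2 and 851 TPM in pup 1, followed by Dpysl3 at 633 and 738 TPM and Crmp1 at 457 and 539 TPM, and Dpysl5 was lowest at 69.5 and 99.8 TPM. The MICAL oxidoreductases, which bind class A plexins and take actin filaments apart, were lower, with Mical1 at 19.7 TPM in pup 2 and 22.1 TPM in pup 1, Mical3 at 5.09 and 7.83 TPM and Mical2 at 5.02 and 5.66 TPM. Of GTPases and their regulators, Rac1 was at 272 and 271 TPM in pup 2 and pup 1, Rhoa at 211 and 205 TPM and Rap1b, a substrate of the plexin GTPase-activating domain, at 147 and 147 TPM, while Farp2, the exchange factor tied to Plxna1, was lowest at 2.68 and 2.72 TPM. Of kinases, actin regulators and adaptors, Cfl1 (cofilin) was at 1953 TPM in pup 2 and 2173 TPM in pup 1, Gsk3b at 116 and 120 TPM, and Fyn, a kinase downstream of Plxna2, at 112 and 87.9 TPM. Fes, a kinase activated by plexin A, was lowest at 2.18 TPM in pup 2 and 1.92 TPM in pup 1.

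Beside other guidance families, the member median of 11.2 ± 0.460 TPM stood close to that of 22 Eph receptors and ephrins (10.9 ± 1.29 TPM) and of 7 Slits and Robos (13.5 ± 1.36 TPM), and above that of 10 netrin, DCC and UNC5 genes (5.16 ± 0.803 TPM; SD, n = 2). Detection in both pups was 20 of 22, 6 of 7 and 9 of 10 in those families, against 30 of 31 here. The highest member, Nrp1, was near Robo2, the highest of its family at 38.4 TPM, and below Efnb3 at 115 TPM (means over both pups).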

How the data were processed

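The deposited files comprise a gene table and a transcript table for each of the 2 pups. Per the file headers, their columns are expected counts (estimated reads, which need not be whole), TPM, posterior means of both, 95% interval bounds of TPM, here treated as a score, lengths, and the percent of gene TPM per transcript. TPM was scaled by the authors over all rows, spike-ins included. Per the deposited notes, reads were assigned on mm10 with GENCODE M4. Neither an aligner nor a strand setting is given in the sources used here, and the column names are those that RSEM writes.

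GENCODE M21 on GRCm38 (the mm10 build) supplied symbols, gene types, coordinates and transcript models, joined on unversioned IDs. A symbol was found for 42462 of 43346 gene rows, and 26345 tRNA, spike-in and phiX rows were left out. Some transcript models differ in length between the annotations, so coding exons are those of M21. Expected counts were rounded, and TMM factors and log2 ratios with a prior count of 2 were computed with edgeR 4.0.16 (R 4.3.3); DESeq2 1.42.0 size factors were an alternative. Counting intervals of log2 ratios and the floor of 3 counts cover counting error only. Tables used Python 3.11.15, numpy 2.4.6, pandas 2.3.3 and matplotlib 3.10.9, and the step that computes log2 ratios was tested on simulated data. All members are named; of each partner list the 3 highest, the lowest and any gene at 1 TPM in exactly 1 pup; of transcripts, those leading or with at least 20%. Gipc1, Chl1, Rhod, Robo2, Efnb3 and the antisense genes were added after their values were seen. The members and lists were chosen with earlier results of these data known. A further marker gene of these lists is not reported here.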

Additional observations from a re-analysis of the deposited data

How the results depend on the processing

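Detection of members stayed between 25 and 30 of 31 and of partners between 40 and 48 of 49 under the alternatives, with 30 and 48 in either pup alone. TPM rescaled over nuclear protein-coding genes gave 67.3 for Nrp, 89.1 for Plxna, 56.5 for Plxnb, 8.85 for Plxnc, 4.18 for Plxnd, 58.8 for Sema3, 116 for Sema4, 20.7 for Sema5, 111 for Sema6, 4.49 for Sema7, 311 for ligands, 226 for receptors and 13.9 for the median, with the ratio of ligands to receptors unchanged by construction. Posterior mean TPM gave 7.30 for Plxnc, 3.595 for Plxnd, 51.1 for Sema3, 3.52 for Sema7 and 11.8 for the median. Protein-coding transcripts alone, an alternative added after seeing the data, gave 60.9 for Plxna, 24.8 for Plxnb, 6.96 for Plxnc, 39.1 for Sema3, 80.8 for Sema4, 67.9 for Sema6, 205.6 for ligands, 149 for receptors and 9.975 for the median, as fewer transcripts enter. The ligand to receptor ratio on expected counts was 0.905, below 1, as counts are not divided by length, against 1.38 on TPM. With coding exons pooled, also added later, 12 of 13 genes kept the leading form. No member's log2 ratio changed sign under DESeq2 size factors, library totals alone, a prior count of 0.5 or posterior mean counts, with a largest shift of 0.0172, and no member passed 2-fold at a mean count of at least 100. Without either pup, the ligand to receptor ratio ran from 1.34 to 1.43. Other scales of the 13 pairs, also added later, moved 10 mean ratios past the SD of the pups on expected counts. Protein-coding transcripts moved 8 and posterior mean TPM 6. Over protein-coding transcripts Sema6a to Plxna4 was 1.77 and Sema3c to Nrp1 0.327. Posterior mean shares, also added later, moved the Nrp2 insert as given, and the Sema3f exon to 21.5% from 25.6%. They did not move the Sema6d exons or the Nrp2 ends. With 1 library a pup, differences between pups have no replicate check. Sema3g, at 37 and 31 counts in pup 2 and pup 1, is limited by depth: its log2 ratio of -0.28 has a counting interval of -0.97 to 0.41. No paired analysis was possible because the series has 1 group, and the replicate numbers name the 2 pups.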
